A study of Zea mays with 6 samples.

Results

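The probe sets for cytosolic ribosomal proteins of maize were described on all 6 arrays of the study. A probe set was taken as a member when its gene symbol in the platform annotation, a synonym of that symbol, or its title in the gene table published with the study named a protein of the 40S (small) or 60S (large) subunit. Proteins of plastid and mitochondrial ribosomes and kinases were left out. This gave 146 of 17621 probe sets, 55 for the small and 91 for the large subunit, which covered 20 small-subunit and 33 large-subunit proteins. Of the 146, 26 were named by the platform annotation, without regard to these arrays. The other 120 were named by the published titles alone, and that table holds probe sets which the authors selected on these same arrays. Counts over all 146 are thus not independent evidence of a direction, and the 26 are given beside them.

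The leaves came from 2 near-isogenic varieties grown in the field. DKC6575 carries MON810, a transgene in which the cauliflower mosaic virus 35S promoter and a maize HSP70 intron drive CryIAb, and Tietar is the non-GM variety. The conditions were T2 drought stress (silking stage, plots at 0% of field capacity), T2 control (silking stage, fully irrigated at 100%) and T1 control (eight-leaf stage, fully irrigated). Each variety and condition had 1 array, hybridised with RNA of leaf pieces cut free of the central vein. The methods name biological replicates without saying how they entered the arrays, and T1 and T2 differ in plant stage, leaf and sampling day together, so these cannot be told apart.

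The cytosolic ribosome reads nuclear mRNA into protein. The small subunit holds the mRNA and the decoding site, and the large subunit joins the amino acids and leads the new chain out through a tunnel. In plants each ribosomal protein is encoded by several near-identical genes, the subunits are used in equal number, and the genes are known for high expression in young, growing tissue. The acidic proteins P1, P2 and the plant protein P3 sit on P0 as a flexible stalk that recruits translation factors.

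Signals were the deposited intensities, scaled so that the trimmed mean of every array was about 500. Between 39.6% and 41.6% of probe sets on an array lay under a signal of 64. Members were far brighter, since 135 of 146 averaged at least 64 (a mean log2 signal of 6), and the median member had a signal of 898 to 1601 across the 6 arrays. Probe sets ending in _a_at, _s_at or _x_at can pick up several near-identical copies, and 74 of the members are of that kind. Leaf identity was checked on 20 marker probe sets of the C4 and light-harvesting genes. Their summed signal was 130528 to 141958 in T2 stress, 167953 to 203911 in T2 control and 225142 to 239267 in T1 control.

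Ribosomal protein transcripts were higher in T2 control than in T1 control leaves of both varieties, and they stood at a like level in T2 drought stress. The members together made up 2.26% of all signal on the DKC6575 array and 2.37% on the Tietar array in T2 stress. In T2 control they made up 2.19% of the signal in each variety, and in T1 control 1.34% in DKC6575 and 1.41% in Tietar. The median member signal was 1508 and 1601 in T2 stress, 1488 and 1405 in T2 control, and 898 and 982 in T1 control (DKC6575 and then Tietar each time). The 4 T2 arrays lay above both T1 arrays on each of these measures. In these leaves, made of many cell types, more ribosomal protein mRNA per cell and a larger part of cells rich in it cannot be told apart.

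**Figure D1:**
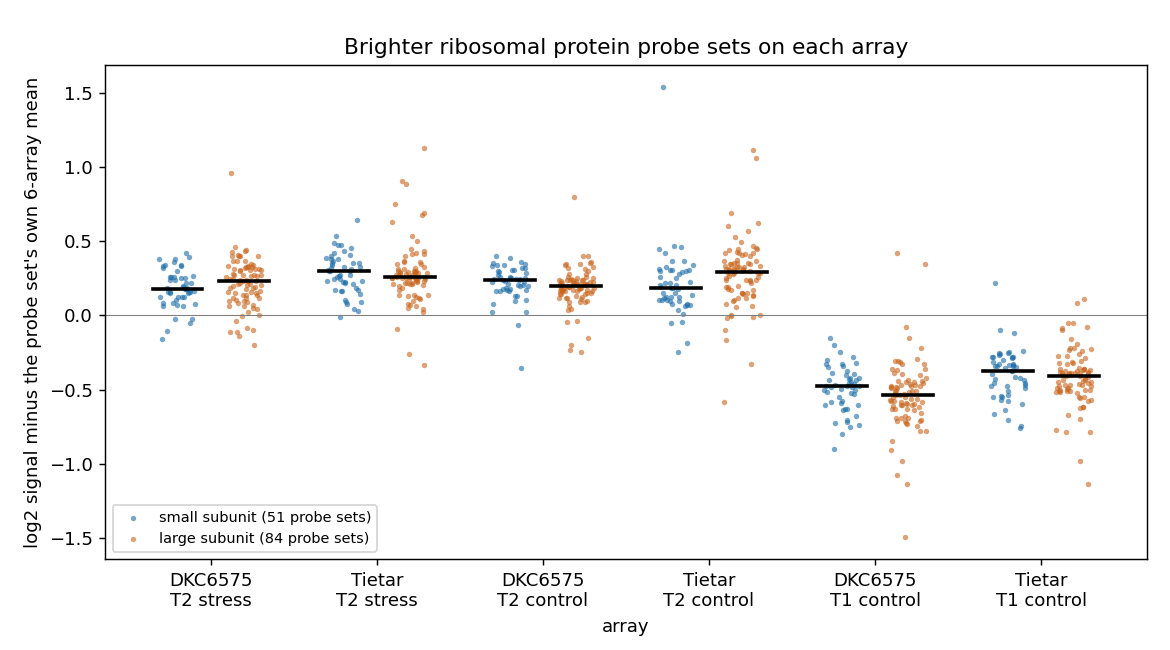
Log2 signal of the 135 brighter ribosomal protein probe sets on each array, relative to the probe set's own mean over the 6 arrays (vertical axis), for the 51 small-subunit and 84 large-subunit probe sets. Points are probe sets and black bars are medians. The medians of both subunits lie above 0 on the 4 T2 arrays and below 0 on both T1 arrays.

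The T1 to T2 difference was tested with limma, in a fit of variety plus condition over all 6 arrays in which the varieties served as replicates (2 residual degrees of freedom). A difference common to both varieties was called at a Benjamini-Hochberg adjusted p under 0.05 over all 17621 probe sets. From T1 control to T2 control, 115 of 146 members rose and 0 fell, against 6.23% of all probe sets that rose and 3.37% that fell. At an unadjusted p under 0.05, 129 members were higher and 1 was lower, against 14.5% and 9.51% of all probe sets. Of the 26 members named by the platform, 16 rose and 0 fell (17 higher and 1 lower unadjusted). The 115 that rose did so by 0.38 to 1.83 on the log2 scale (1.3-fold to 3.56-fold), and 111 of them lay between 0.4 and 1.1. These counts rest on the T1 arrays and on how dim probe sets enter the fit. Without the DKC6575 T1 array 6 members were called (1 of the platform-named) and without the Tietar T1 array 27 (2 of the platform-named). No member was called without the intensity trend in the variance or with signals below 64 set to 64, whereas 104 were called without the trend once dim probe sets were left out.

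The median member differed by 0.71 on the log2 scale in DKC6575 and by 0.68 in Tietar (T2 control minus T1 control), beside 0.026 and 0.065 for the median of all probe sets. For the 26 platform-named members the medians were 0.63 in DKC6575 and 0.47 in Tietar. In both varieties 139 of the 146 members were higher in T2 control, beside 6374 of all 17621 probe sets. Of the 26 platform-named members 21 were higher in both. In 2 of the 146 members the difference was negative in both varieties, and in 5 its sign differed between them. A difference of at least 2-fold was uncommon, with 15 members up and 1 down in DKC6575 (8.47% and 9.2% of all probe sets), 18 up and 0 down in Tietar (11.4% and 8.38%), and 3 members up in both varieties. That background holds many dim probe sets, whose differences scatter widely. Among probe sets whose log2 signals averaged 6 or more, 14 of 135 members (10.4%) were at least 2-fold up in DKC6575 and 11 (8.15%) in Tietar, against 2.15% and 2.74% of the 10383 probe sets of that brightness. The paper names a 2-fold difference for the genes of its table, so counts of title-named members are not independent of that choice. Of the 24 brighter members named by the platform, 3 were at least 2-fold up in DKC6575 and 2 in Tietar. Most members differed by less than 2-fold.

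All 4 T2 arrays were above both T1 arrays for 127 of 146 members and below them for 2, against 21.4% and 14% of all probe sets. Among the 26 platform-named members the counts were 19 above and 2 below. The drought-stressed T2 arrays, set against the same T1 arrays, gave 116 members that rose and 1 that fell, where 9.95% of all probe sets rose and 6.04% fell. Of the platform-named members 16 rose and 1 fell in that comparison. The median member differed by 0.71 in DKC6575 and 0.66 in Tietar (T2 stress minus T1 control). Both comparisons use the same T1 arrays, so their counts are not independent of each other. Without the DKC6575 T1 array 41 members rose against T2 stress and without the Tietar T1 array 56.

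Among the brighter members, the difference in DKC6575 was only loosely related in size to that in Tietar (Pearson's r = 0.38 across 135 probe sets and 0.12 across all 146, a description only, since the points share the same arrays). The members thus shared the direction of the difference more than its size.

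**Figure D2:**
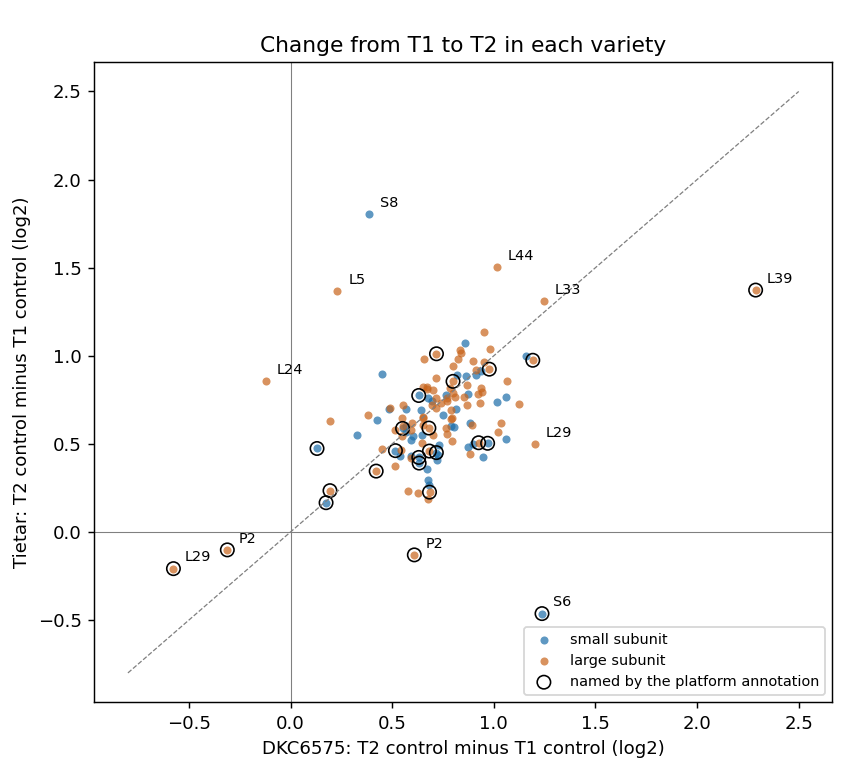
T2 control minus T1 control (log2) of each brighter ribosomal protein probe set in DKC6575 (horizontal axis) and Tietar (vertical axis). Colours give the subunit, black rings mark probe sets named by the platform annotation, and the dashed line marks equal differences. Most points lie in a cluster around 0.7 on both axes, with L39 far to the right, L29 and P2 below 0 on both axes, and S8 and L5 high in Tietar alone.

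The small and large subunits moved together. Of the small-subunit probe sets 45 of 55 rose, and of the large-subunit probe sets 70 of 91 rose, against 6.23% of all probe sets. Among the platform-named members 7 of 10 rose in the small and 9 of 16 in the large subunit. The median difference was 0.68 for the small and 0.72 for the large subunit in DKC6575, and 0.60 and 0.72 in Tietar. The small minus large difference of medians was -0.040 in DKC6575 and -0.12 in Tietar, beside an interquartile range of the common change from 0.54 to 0.78 in the small and from 0.58 to 0.85 in the large subunit. Relative to each probe set's own mean, the small-subunit median minus the large-subunit median was -0.045 and 0.015 in T2 stress, 0.031 and -0.11 in T2 control, and 0.071 and 0.049 in T1 control (DKC6575 and then Tietar). The order of the subunits thus changed between the arrays, and in DKC6575 the sign turned to 0.017 without the probe sets that can pick up several copies. No test of the subunits against each other was made, because the members are not replicates of a condition.

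Of the 53 proteins, 49 had at least 1 probe set that rose, and 29 had every probe set rise. The 4 proteins with no call were S8, S10, L13 and P1. Protein medians ran from 0.17 (S10) to 1.11 (L33), and their own median was 0.69 for the small and 0.71 for the large subunit. When each protein was represented by its brightest probe set, 46 of 53 rose and 0 fell, against 6.23% and 3.37% of all probe sets. Most members were named by the published titles alone, so these counts by protein are not independent evidence of a direction either. Of the 26 platform-named probe sets 16 rose. The median common change was 0.79 for the 42 members with a mean log2 signal of 6 to 10, 0.68 for the 84 of 10 to 12, and 0.59 for the 9 above 12. For the platform-named members alone it was 0.39 (8 probe sets), 0.57 (13) and -0.21 (3), so the series was not shared by them. In the same ranges the medians over all probe sets were 0.075, 0.0072 and -0.23.

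**Figure D3:**
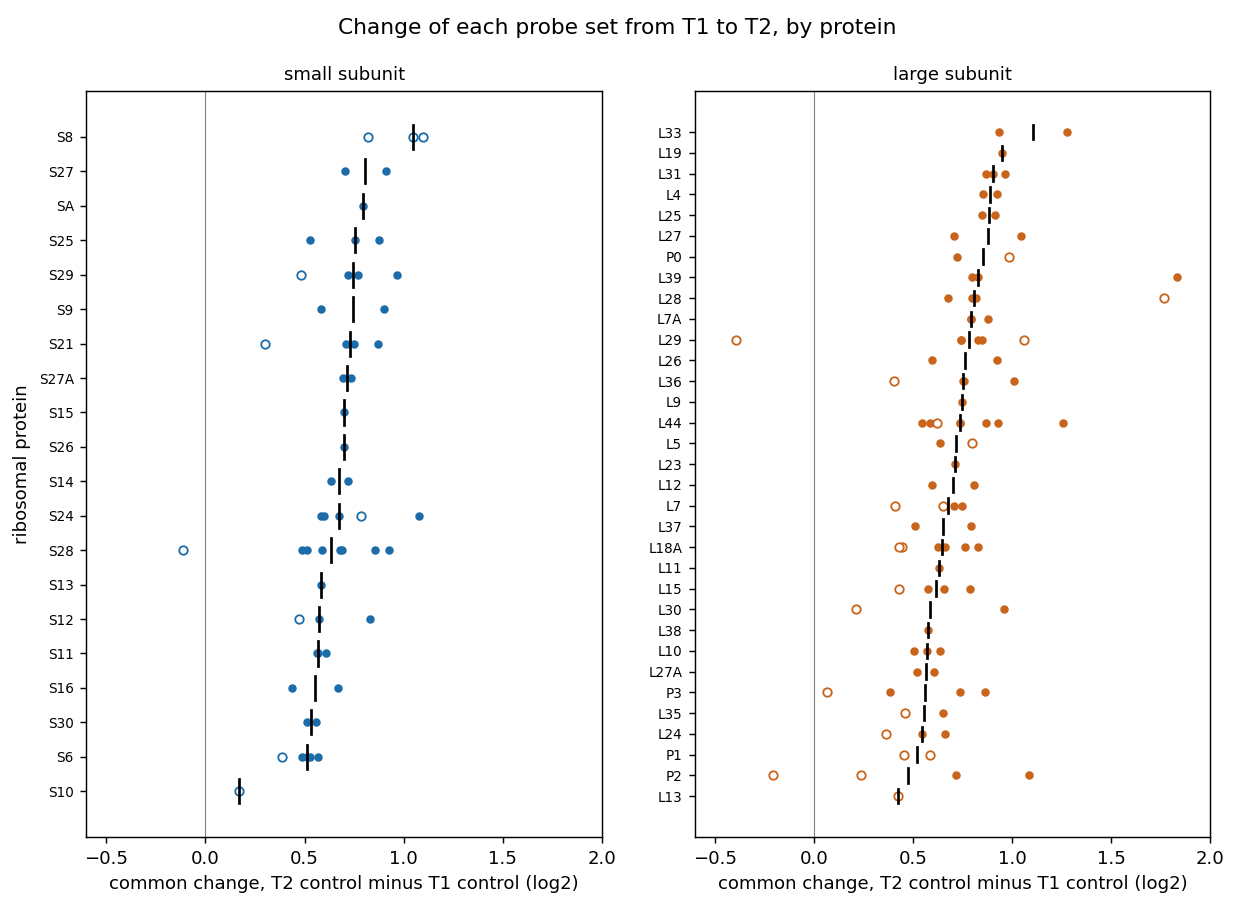
Common T1 to T2 change (T2 control minus T1 control, log2) of each probe set, grouped by protein and ordered by the protein's median (black tick), for the small (left) and large (right) subunit. Filled points passed an adjusted p under 0.05 (limma) and open points did not. Nearly all points lie to the right of 0, and L29 and P2 spread most within a protein.

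Within the large subunit, the members of the tunnel wall and its rim had the highest medians of the role groups. L4 and L39 reach into the wall of the exit tunnel, and 5 of their 5 probe sets rose (median 0.85). L19, L26, L31 and L35 surround the tunnel exit, where factors that handle the new chain dock, and 7 of their 8 probe sets rose (median 0.89). L31 had signals of 1800.1 and 1982 in T2 stress, 1685 and 1774 in T2 control, and 876 and 1022 in T1 control (Zm.17836.1.A1_at, DKC6575 and then Tietar). All 4 T2 values of L31 thus lay above both T1 values, and the common change was 0.87 (SE 0.09, limma adjusted p = 0.0028). L19 likewise had 1094 and 1307 in T2 stress, 1192 and 1003 in T2 control, and 605 and 528 in T1 control, a common change of 0.95.

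The largest change among the brighter members belonged to L39, a very small protein of the tunnel wall. Zm.16508.1.S1_at had signals of 2399.8 and 1909 in T2 stress, 2144 and 1454 in T2 control, and 439 and 561 in T1 control. The 4 T2 values all lay far above both T1 values. The difference was 2.29 in DKC6575 and 1.37 in Tietar, and the common change 1.83 (SE 0.19, limma adjusted p = 0.0028). The other L39 probe sets did not share that size. Zm.16508.1.S1_x_at, assigned to the same gene, had 2095 and 2381 in T2 control and 1204 and 1317 in T1 control, a common change of 0.83. Zm.16508.2.A1_at changed by 0.80. Both of these had T2 values above both T1 values, as Zm.16508.1.S1_at had.

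L33 had the second largest change among the brighter members, and it was nearly equal in the varieties. Its signals (Zm.3169.3.S1_at) were 737 and 746 in T2 stress, 767 and 836 in T2 control, and 323 and 337 in T1 control. The groups did not overlap, the varieties differed little within each condition, and the common change was 1.28 (SE 0.10, limma adjusted p = 0.00091). The second L33 probe set rose by 0.93.

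L29, a small protein of the large subunit, was split. Zm.457.1.S1_at was a bright probe set and had 7377 and 6173 in T2 stress, 6652 and 6916 in T2 control, and 9916 and 7990 in T1 control. All 4 T2 values were below both T1 values, opposite to the other members, but the common change of -0.39 missed the threshold (SE 0.12, limma adjusted p = 0.097). The other 5 L29 probe sets had changes of 0.74 to 1.06, and 4 of them rose. Zm.457.1.S1_at also had no published title, so that it is a member through the platform annotation alone.

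The stalk held the widest range of changes among the role groups. Of the 14 probe sets of P0, P1, P2, P3 and L12, the protein at the base of the stalk, 8 rose and 0 fell (median 0.66, lowest -0.21, highest 1.08). The 4 P2 probe sets, which the annotation assigns to 4 genes, differed most. Zm.465.1.A1_at had 421 and 451 in T2 stress, 369 and 427 in T2 control, and 162 and 217 in T1 control, and rose by 1.08 (SE 0.13, limma adjusted p = 0.0041). Zm.7300.1.S1_at had 745 and 917 in T2 stress, 871 and 746 in T2 control, and 459 and 525 in T1 control, and rose by 0.72 (limma adjusted p = 0.018). In both of these P2 probe sets every T2 value was above both T1 values.

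The other P2 genes did not follow. Zm.350.1.S1_at had the highest signals of all members, which is no measure of its mRNA number against other genes, with 11859 and 10170.1 in T2 stress, 13152 and 12673 in T2 control, and 16316 and 13598 in T1 control. All its T2 values were below both T1 values. The change to T2 control was -0.21 (SE 0.12, limma adjusted p = 0.35), and in T2 stress this probe set was the single member that fell against T1 control (-0.44, limma adjusted p = 0.043). Zm.466.1.S1_at had 1863 and 2368 in T2 stress, 1843 and 988 in T2 control, and 1209 and 1082 in T1 control. Its T2 control value was above T1 in DKC6575 and below it in Tietar, so the varieties went opposite ways (0.61 and -0.13).

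For P3, the stalk protein specific to plants, 3 of 4 probe sets rose, and the fourth had signals of only 2.67 to 30.4 on the 6 arrays. The brightest, ZmAffx.262.1.A1_s_at, had 2849.7 and 2695 in T2 stress, 2871 and 3147 in T2 control, and 1825 and 1781 in T1 control, a common change of 0.74. The lowest rise was that of Zm.348.1.A1_x_at, by 0.38, with 945 and 1100.1 in T2 stress, 1065 and 1203 in T2 control, and 795 and 947 in T1 control. Neither P1 probe set passed the threshold (0.45 and 0.59). The brighter P0 probe set, the anchor of the stalk on the ribosomal RNA, rose by 0.72.

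**Figure D4:**
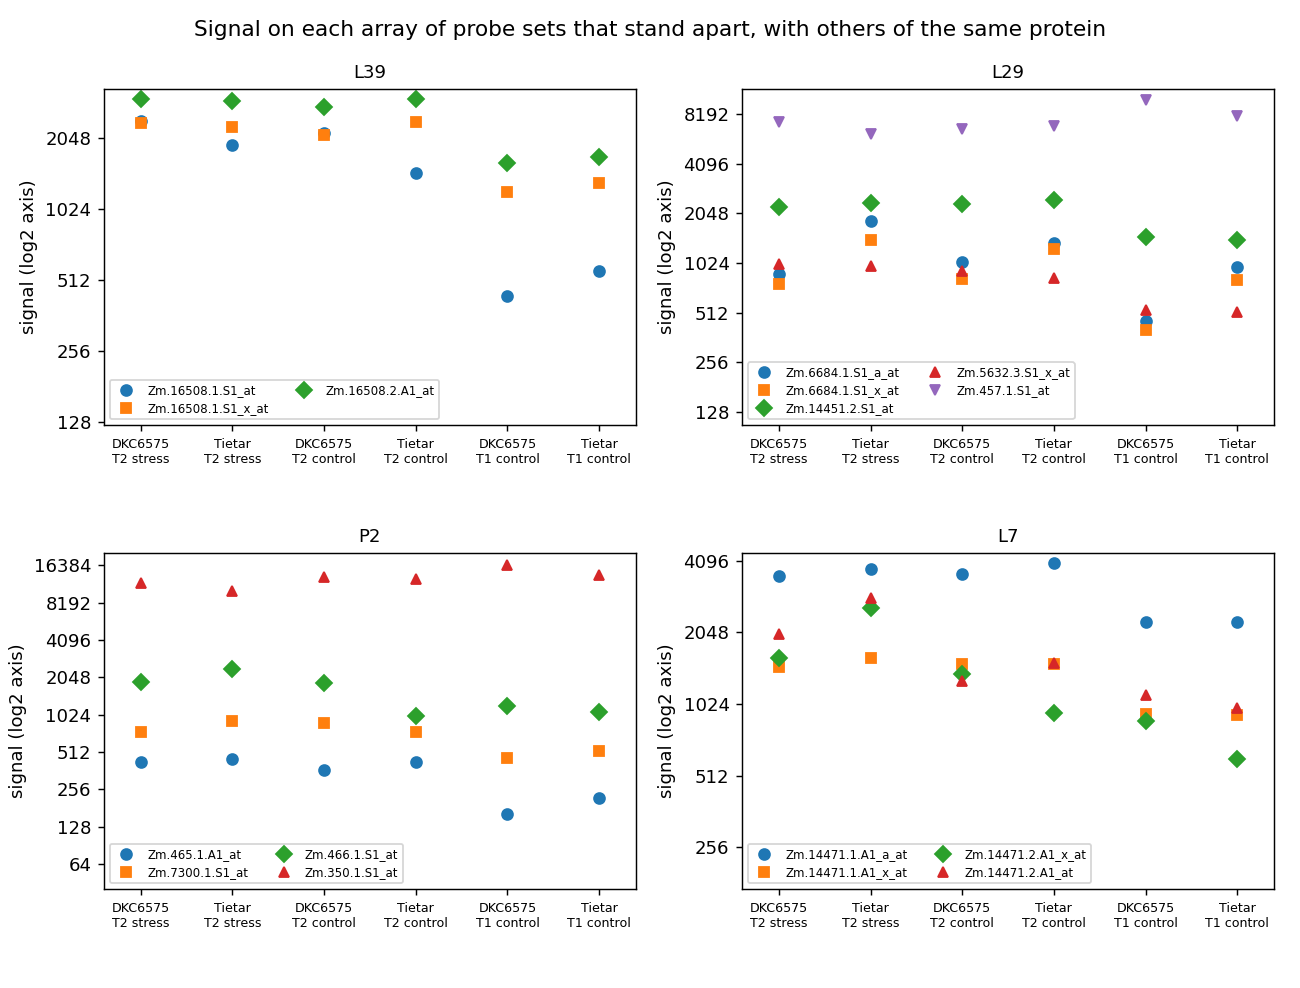
Signal on each array (log2 axis) of probe sets for L39, L29, P2 and L7, with symbols for the individual probe sets. Zm.16508.1.S1_at of L39 drops furthest in T1, Zm.457.1.S1_at of L29 and Zm.350.1.S1_at of P2 are higher in T1 than in T2, and the Zm.14471.2 probe sets of L7 are highest in T2 stress.

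L5 and L11 travel with the 5S ribosomal RNA as a particle before they enter the large subunit. L5 (Zm.7056.1.A1_a_at) had 5253 and 5560 in T2 stress, 5526 and 5908 in T2 control, and 3761 and 3583 in T1 control, and rose by 0.64 (SE 0.10, limma adjusted p = 0.0089). L11 had 457 and 468 in T2 stress, 433 and 465 in T2 control, and 275 and 305 in T1 control, and rose by 0.63 (SE 0.11, limma adjusted p = 0.014). These probe sets rose by nearly the same amount, close to the median common change of all members (0.70), and the T2 and T1 values did not overlap in either. The other L5 probe set, Zm.7056.12.S1_at, was not called (0.80, limma adjusted p = 0.18). It differed by 0.23 in DKC6575 and 1.37 in Tietar.

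The small subunit threads the mRNA between an entry and an exit. S30, at the entry, had 2 probe sets that rose by 0.51 and 0.56 (signals of 1390.05 to 1670 on the 4 T2 arrays and 922 to 1041 on both T1 arrays). At the exit, where S14, S26 and S28 lie, 10 of 11 probe sets rose (median 0.68). The brightest of them, the S28 probe set Zm.16049.2.A1_at, had 3917 and 4105 in T2 stress, 4456 and 4935 in T2 control, and 3071 and 3656 in T1 control. It rose by 0.48 (SE 0.10, limma adjusted p = 0.022), and the T2 values all lay above the T1 values. S28 had 8 probe sets in all, of which 7 rose, and the eighth was dim (signals of 44.1 to 68 on the 6 arrays, common change -0.11).

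S6 is phosphorylated by S6 kinase in the target of rapamycin pathway, which couples growth signals to translation. Of its 5 probe sets 4 rose, by 0.49 to 0.57. For Zm.3699.7.S1_at the signals were 1997 and 2448 in T2 stress, 2515 and 2667 in T2 control, and 1716 and 1775 in T1 control. Zm.516.1.A1_at, assigned to a second S6 gene, had 2153 and 2355 in T2 stress, 2150.0 and 2026 in T2 control, and 1388 and 1511 in T1 control. In these S6 probe sets every T2 value was above both T1 values. The S6 probe set that was not called, Zm.3699.7.S1_a_at, had 992 in DKC6575 and 661 in Tietar in T2 control, and 421 in DKC6575 and 911 in Tietar in T1 control.

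S27a is made as a fusion with ubiquitin and is cut free after translation. Its probe sets had 3346 and 3713 (Zm.2925.2.S1_at) and 2028 and 2339 (Zm.15971.1.S1_at) in T2 stress. In T2 control they had 3740 and 3903, and 2212 and 1845. In T1 control they had 2166 and 2578, and 1129 and 1301. They rose by 0.69 and 0.74 from T1 to T2 control. The annotation calls Zm.15971.1.S1_at RPL27A and the published title S27a, and the title was followed here.

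S9, S27 and SA had changes like those of the exit proteins. S9, which lies near the mRNA entry and bears on the fidelity of decoding, had 2879 and 2942 in T2 stress, 3022 and 3094 in T2 control, and 1608 and 1670 in T1 control (Zm.13226.2.A1_at), a rise of 0.90 (SE 0.09, limma adjusted p = 0.0022). Its second probe set rose by 0.59. S27, a zinc-binding protein, rose by 0.70 and 0.91 in its 2 probe sets. SA, the plant counterpart of the laminin receptor precursor, had 362 and 395 in T2 stress, 356 and 289.8 in T2 control, and 171 and 201 in T1 control, and rose by 0.79 (SE 0.16, limma adjusted p = 0.022). Every T2 value of S9 and SA was above both T1 values.

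For S21, S25 and S29, each with at least 3 probe sets, the size of the change varied among probe sets. S29 ranged from 0.48 to 0.97 and 3 of its 4 probe sets rose, S25 from 0.53 to 0.87 with 3 of 3, and S21 from 0.30 to 0.87 with 3 of 4. The S21 probe set that was not called, Zm.207.1.S1_at, had low signals, with 91.6 and 81.5 in T2 stress, 72.9 and 87.5 in T2 control, and 66.6 and 63.0 in T1 control. Its T2 values were all above its T1 values by a small margin.

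Around the peptidyl transferase centre of the large subunit, L10 is a protein that in yeast joins late and completes the site. Its 3 probe sets rose by 0.51, 0.57 and 0.64. Zm.14596.1.S1_at had 2256 and 2498 in T2 stress, 2405 and 2701 in T2 control, and 1501 and 1795 in T1 control. L15 ranged from 0.43 to 0.79 with 3 of 4 probe sets that rose, L18a from 0.43 to 0.83 with 4 of 6, and L36 from 0.41 to 1.01 with 3 of 4. In L7a, which in yeast binds ribosomal RNA early in assembly, 3 of 3 probe sets rose, by 0.79 to 0.88, the narrowest range among these proteins. The L36 probe set with the highest change had 4608 and 4092 in T2 stress, 4012 and 4561 in T2 control, and 2032 and 2217 in T1 control.

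L24, which in Arabidopsis takes part in translation reinitiation, had 2 probe sets that rose, by 0.55 and 0.66. The L24 probe set that did not, Zm.7081.5.S1_at, had 142 and 184 in T2 stress, 134 and 217 in T2 control, and 146 and 120.0 in T1 control. In DKC6575 its T1 value was the highest of the variety, and in Tietar the lowest.

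Other members with changes near or above 2-fold in the fit were S24 (Zm.16024.1.S1_at, 1.08), L27 (Zm.14497.8.A1_x_at, 1.04), L36 (Zm.16502.7.A1_x_at, 1.01) and L44 (Zm.2895.8.S1_a_at, 1.26). S24 had 1005 and 1235 in T2 stress, 1158 and 1205 in T2 control, and 518 and 604 in T1 control. Its other 4 probe sets had changes of 0.58 to 0.78, of which 3 passed the threshold. L44 had 8 probe sets, of which 7 rose, by 0.55 to 1.26. The highest of these had low signals, with 86.2 and 95.7 in T2 stress, 95.3 and 192 in T2 control, and 47.2 and 67.6 in T1 control, so that the Tietar T2 control array stood apart. The other 6 L44 probe sets that rose lay between 0.55 and 0.93.

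At the low end, S10 had the lowest protein median, with 425 and 432 in T2 stress, 412 and 425 in T2 control, and 365 and 378 in T1 control (common change 0.17, SE 0.11, limma adjusted p = 0.40). Its name in the annotation does not tell the cytosolic from an organellar S10. L30 had a member of each kind. Zm.1084.1.S1_at had 709 and 806 in T2 stress, 688 and 663 in T2 control, and 602 and 564 in T1 control, a change of 0.21 that missed the threshold (limma adjusted p = 0.29). Zm.12150.1.S1_at had 2594 and 2980 in T2 control against 1341 and 1526 in T1 control, and rose by 0.96 (limma adjusted p = 0.0033). Low changes were thus found beside common ones for the same protein, as in L29 and P2.

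Ribosomal protein transcripts did not pass the test between drought-stressed and irrigated leaves at T2. Of the 146, 0 rose and 0 fell (T2 stress minus T2 control, limma adjusted p under 0.05), where 0.55% of all probe sets rose and 0.482% fell. At an unadjusted p under 0.05, 4 were higher and 4 lower (7.55% and 5.9% of all probe sets), and the smallest adjusted p was 0.069. The median difference of the members was -0.010 in DKC6575 and -0.0048 in Tietar, beside 0.023 and -0.0018 for all probe sets. For platform-named members the medians were -0.066 and 0.080. At least 2-fold differences were seen for 0 members up and 1 down in DKC6575 (8.04% and 5.94% of all probe sets) and for 2 up and 6 down in Tietar (8.2% and 11.1%). Dim probe sets weigh on that background too. Of the 135 brighter members 0 were up and 0 down in DKC6575, against 0.674% and 0.568% of probe sets of that brightness. In Tietar 2 brighter members were up (1.48%) and 3 down (2.22%), against 2.62% and 1.59%. Without the DKC6575 T2 control array 5 members were called, without the DKC6575 T2 stress array 3 and without the DKC6575 T1 array 1, so the count of 0 is not a count that every set of arrays gives.

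L7 came closest to a call under drought stress. Zm.14471.2.A1_at had 2019 and 2846 in T2 stress, 1282 and 1524 in T2 control, and 1121 and 985 in T1 control. Both stress values were above both control values, a common difference of 0.78 (SE 0.15, limma adjusted p = 0.069). Zm.14471.2.A1_x_at had 1597 and 2583 in T2 stress, 1365 and 942 in T2 control, and 868 and 601 in T1 control (0.84, limma adjusted p = 0.24). The L7 probe sets of the neighbouring cluster, Zm.14471.1.A1_a_at and Zm.14471.1.A1_x_at, differed by -0.063 and 0.018 under drought stress. Next among the brighter members came P2 Zm.466.1.S1_at, with a common difference of 0.64 that was not called. Its T2 stress signal was far above T2 control in Tietar and nearly equal to it in DKC6575. L31 (Zm.13938.2.S1_at) followed, with 128 and 156 in T2 stress, 123 and 102 in T2 control, and 58.6 and 56.2 in T1 control (0.34, limma adjusted p = 0.62). L7 differed between probe sets, as L29 and P2 did between T1 and T2.

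Among the brighter members, the 3 largest drought differences in the other direction (S8, L44 and L5) went with a high value on the Tietar T2 control array. S8 (Zm.7012.12.S1_a_at) had 91.4 and 101 in T2 stress, 79.96 and 296 in T2 control, and 61.2 and 84.7 in T1 control. L5 (Zm.7056.12.S1_at) had 145 and 132 in T2 stress, 119.6 and 293 in T2 control, and 102 and 114 in T1 control. In both, Tietar T2 control was more than 2-fold above the other 5 arrays. That array exceeded all others by at least 0.5 on the log2 scale for 9 members (6.16%), and for 5.63% of all probe sets, against 0.953% to 2.42% for each of the other arrays. High values of this array were thus about as frequent over all probe sets as among the members, and the T1 to T2 differences of S8 and L5 in Tietar (1.80 and 1.37) rest on it. Next came P3 (Zm.348.2.A1_a_at), with 2467 and 2501 in T2 stress, 2805 and 3744 in T2 control, and 1706 and 1857 in T1 control. Both of its stress values lay below both T2 control values, a common difference of -0.38 (SE 0.12, limma adjusted p = 0.21). Of the members below a mean log2 signal of 6, P3 Zm.348.3.S1_at and P0 Zm.4015.3.S1_at were lower under drought stress in both varieties by more than these (-1.73 and -0.98), without passing the threshold.

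Between the varieties no member was called, but the members leaned one way. Of the 146, 0 were higher and 0 lower in DKC6575 than in Tietar, where 0.0114% of all probe sets were higher and 0.0397% lower (limma adjusted p under 0.05). At an unadjusted p under 0.05, 0 were higher and 18 lower (2.34% and 3.65% of all probe sets), and the smallest adjusted p was 0.051. The common difference was negative for 110 of 146 members, with a median of -0.065, and for 9515 of 17621 probe sets, with a median of -0.018. In all 3 conditions 48 members were lower in DKC6575 and 5 were higher, against 15.5% and 11.4% of all probe sets. For platform-named members these counts were 7 and 1 of 26. The median difference was -0.068 in T2 stress, -0.072 in T2 control and -0.12 in T1 control, and at T2 control the 26 platform-named members had a median of 0.053, so the lean was small and not shared by every group. Leaving out one or the other T2 control array gave 3 called members, and leaving out one or the other T2 stress array gave 1.

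An L29 pair carried the clearest variety difference. Zm.6684.1.S1_x_at had 765 in DKC6575 and 1416 in Tietar in T2 stress, 816 and 1247 in T2 control, and 399 and 811 in T1 control. Zm.6684.1.S1_a_at had 871 in DKC6575 and 1844 in Tietar in T2 stress, 1043 and 1359 in T2 control, and 454 and 961 in T1 control. In both probe sets DKC6575 was lower in each condition, by -0.84 (SE 0.10, limma adjusted p = 0.051) and -0.85 (SE 0.14, limma adjusted p = 0.25). Another probe set of that cluster, Zm.6684.4.S1_at, differed by -0.98 but was dim (32.1 to 142). The L29 probe sets of other clusters differed by -0.040 (Zm.14451.2.S1_at) to 0.17 (Zm.457.1.S1_at). The difference was thus seen in 1 cluster of L29 sequences and not across the L29 probe sets.

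Genes that work with the ribosome were described for comparison, by lists drawn from the same titles and symbols. Of 21 probe sets for translation factors, 10 rose from T1 control to T2 control and 0 fell, where 6.23% of all probe sets rose and 3.37% fell. Most of those that rose were for elongation factor 1-alpha, several of them from the same cluster, so they do not stand for as many factors. Elongation factor 2, which moves the ribosome along the mRNA, rose by 0.52, and the cap-binding factor eIF4E1 by 0.54, whereas eIF5A (-0.063) and eIF4A (0.24) did not pass the threshold. The list's median was 0.54, and under drought stress it was -0.26 with 0 called. In T2 stress against T1 control 5 of the 21 rose and 0 fell, beside 9.95% and 6.04% of all probe sets. Of 9 probe sets for ribosome assembly and the nucleolus 5 rose and 0 fell (median 0.84), with 0 called under drought stress. Fibrillarin-2, which methylates ribosomal RNA, had 276 and 257 in T2 stress, 189 and 250 in T2 control, and 106 and 110 in T1 control, and rose by 1.01 (limma adjusted p = 0.013).

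Of the 6 probe sets for organelle ribosomal proteins, 1 rose and 2 fell from T1 control to T2 control (6.23% and 3.37% of all probe sets). The plastid-type 50S protein L6 had 2218 and 2051 in T2 stress, 1768 and 1626 in T2 control, and 2688 and 2787 in T1 control, and fell by 0.69 (limma adjusted p = 0.0062). The 50S protein L11 fell by 0.58, and the 39S protein L47, a mitochondrial type, rose by 0.82. The directions of these few organelle probe sets were mixed, and their difference from the cytosolic members was not tested.

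Markers of other cells and of leaf identity moved with the same comparison. Of the 20 leaf marker probe sets, 0 rose and 2 fell from T1 control to T2 control, and 0 rose and 13 fell in T2 stress against T1 control. Over all probe sets 6.23% rose and 3.37% fell between the control groups, and 9.95% rose and 6.04% fell in T2 stress against T1 control. Of 17 pollen probe sets, 13 were higher on all 4 T2 arrays than on both T1 arrays, and 3 were lower, against 21.4% and 14% of all probe sets. Between the control groups 11 of them rose and 0 fell by limma. The summed signal of the 17 was 15541 to 17538 in T2 stress, 16648 to 18315 in T2 control and 14431 to 15398 in T1 control. Most of it came from a pair of profilin probe sets that were bright on every array. A defining pollen gene, exopolygalacturonase (Zm.3554.1.S1_at), had 1307 and 555 in T2 stress and 1139 and 576 in T2 control, against 2.51 and 7.06 in T1 control. The part of these cells in the ribosomal protein difference was not tested. The pollen sum, most of it from those profilin probe sets, was higher in DKC6575 than in Tietar in each condition. How it relates to the variety differences of the members was not tested. The 18 spike-in controls had a median log2 signal of 10.20 and 10.23 in T2 stress, 10.49 and 10.47 in T2 control, and 10.64 and 10.79 in T1 control, and the part of this in the difference was not tested either.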

How the data were processed

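Leaf RNA was hybridised to 6 Affymetrix maize arrays (1 for each variety in each condition). The intensity values deposited by the authors are on a linear scale, scaled array by array to a 2% trimmed mean near 500 (500.19 to 500.27), and not quantile-normalized, although the methods name RMA and the submitters' processing notes Partek. Of 17734 probe sets, 113 controls were left out. Values were converted to log2 and fitted as condition plus variety with limma 3.58.1 and moderated with an intensity trend (R 4.3.3, threshold 0.05, Benjamini-Hochberg over 17621 probe sets, 2 residual degrees of freedom). No array had a replicate, so p-values rest on how far the varieties differ in a contrast. They rest as well on the variance that the moderation takes from probe sets of like intensity. On simulated data for T2 control minus T1 control (17621 probe sets) 97 of 100 2-fold and 100 of 100 4-fold changes were called. Of the unchanged probe sets 10 were called as well. The noise was drawn along the fitted intensity trend and the changes were planted in brighter probe sets, so the simulation does not test the trend. It also held no change below 2-fold, where most members lay. Counts and medians came from pandas 2.3.3, numpy 2.4.6 and scipy 1.17.1 (Python 3.11.15) and figures from matplotlib 3.10.9.

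The members, lists and settings were chosen with earlier results of these data known. Of 146 members, 12 carry both a platform name and a title, 14 a platform name alone and 120 a title alone. The copy of the title table used here is shortened. Probe sets were named in the text by a rule: among brighter members, the 8 largest and 8 smallest T1 to T2 changes, the 4 largest and 4 smallest drought differences, the 3 largest and 3 smallest variety differences and the 2 brightest of each role group. Proteins with 3 or more probe sets were given by their range. Further probe sets of the same proteins, L19 and the genes of the comparison lists were named after their values were seen. The alternatives were no intensity trend, a minimum mean log2 signal of 6, a floor of 64, loess, quantile or median normalization, no variety term, controls kept, the brightest probe set per protein, platform names alone, probe sets without _a, _s and _x, and each array left out. The floor together with the filter and the count of arrays that did not overlap were added after the data were seen. With 6 arrays, their number limits the precision.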

Additional observations from a re-analysis of the deposited data

Results flagged for a closer look

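Of the 38 probe sets named by the rule, 2 had T1 to T2 differences of opposite sign in the varieties (T2 control minus T1 control, DKC6575 and then Tietar), and whether the varieties differed was not tested. These were P2 Zm.466.1.S1_at (0.61 and -0.13) and L24 Zm.7081.5.S1_at (-0.12 and 0.85).

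Under drought stress (T2 stress minus T2 control, DKC6575 and then Tietar) 15 of the 38 had opposite signs, and these differences were not tested either. The widest were S8 Zm.7012.12.S1_a_at (0.19 and -1.55), L5 Zm.7056.12.S1_at (0.28 and -1.15) and L29 Zm.6684.1.S1_a_at (-0.26 and 0.44). The S27a probe set Zm.15971.1.S1_at had -0.12 and 0.34, S21 Zm.207.1.S1_at had 0.33 and -0.10, and L24 Zm.7081.5.S1_at had 0.085 and -0.23. L36 Zm.16502.7.A1_x_at had 0.20 and -0.16, L31 Zm.17836.1.A1_x_at had 0.25 and -0.069, and L29 Zm.457.1.S1_at had 0.15 and -0.16. S30 Zm.6629.1.S1_at had -0.050 and 0.25, S28 Zm.16049.2.A1_a_at had -0.081 and 0.19, and L29 Zm.6684.1.S1_x_at had -0.093 and 0.18. S24 Zm.16024.1.S1_at had -0.20 and 0.035, and the L39 probe sets Zm.16508.2.A1_at and Zm.16508.1.S1_x_at had 0.12 and -0.019, and 0.16 and -0.066. Most of these values are small beside the T1 to T2 differences of the same probe sets.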

How the results depend on the processing

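The median T1 to T2 difference of the members kept its sign under each alternative run, and the number of members called did not. From T1 to T2 control 115 members were called, 0 without the intensity trend and 0 with the floor of 64, with the same 0 and 0 for the platform-named members and for T2 stress against T1. The other normalizations, filters and fits gave 104 to 117. Leaving out an array gave 6 to 124 for the members, 1 to 18 for the platform-named members, 41 to 123 for T2 stress against T1, 0 to 5 under drought stress and 0 to 3 between the varieties. In these fits a condition left with 1 array is assumed to vary like the others. Between the varieties 1 member was called with loess, quantile or median normalization or controls kept.

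The median T1 to T2 difference was 0.67 in DKC6575 and 0.64 in Tietar with quantile normalization, 0.55 and 0.57 with median centring, 0.67 and 0.62 with the brightest probe set per protein, and 0.63 and 0.47 for platform names alone. Median centring moved these medians by 0.15 and 0.10 and the median of all probe sets to -0.13 and -0.039. In Tietar it was 0.64 with the floor and 0.61 without _a, _s and _x probe sets. The median drought difference was -0.053 in DKC6575 and -0.14 in Tietar with median centring, -0.066 and 0.080 for platform names alone, and 0.029 in Tietar without _a, _s and _x probe sets. The small minus large difference in DKC6575 was -0.073 with the brightest probe set per protein and turned to 0.017 without _a, _s and _x probe sets. In Tietar it was -0.093 with loess, -0.078 with the brightest, -0.092 for platform names alone and -0.16 without _a, _s and _x. Of the 38 named probe sets 27 were called from T1 to T2, and over the alternatives their calls were kept 310 times and lost 122 times. For the 11 that were not called, a call was gained 10 times in 176. None of these calls reversed in direction. The causes were not tested. The variety term pairs the conditions within a variety, and without it 113 members rose from T1 to T2 control and 115 in T2 stress against T1.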
